A study of Sus scrofa with 48 samples.

Results

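Perirenal adipose tissue (PRAT), the fat depot that surrounds the kidneys, was compared between pigs of 2 lines bred in opposite directions for residual feed intake (RFI). RFI is the part of a pig's feed intake that its growth and maintenance do not predict, so a pig of low RFI turns feed into weight gain more efficiently. All 48 pigs of the series entered the comparison, 24 of the low RFI line (strain RFIneg in the labels) and 24 of the high RFI line (RFIpl). They were pure Large White barrows of 132 days of age. In each line 12 pigs ate a diet rich in fat and fiber (HF) and 12 ate a diet low in fat and rich in starch (LF), both without restriction. RNA of each pig was hybridised to its own one-colour array with 60305 porcine probes, and no pigs were pooled. Each line is a single bred population and the labels name no litters, so that an effect of selection, of drift and of family cannot be told apart. A value is the log2 signal of a probe minus the median probe of its array, a line difference is the low RFI mean minus the high RFI mean with diet as a covariate, and its error is the standard error (SE). Whole tissue was measured, so fewer cells of a type and less RNA per cell cannot be told apart.

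White fat cells build triglyceride from glucose, acetate and circulating lipid, store it in a droplet coated by perilipins, and release it as fatty acids when energy is needed. Fatty acids are elongated and desaturated in the endoplasmic reticulum and burned in mitochondria, while peroxisomes shorten very long and branched chains. The tissue also hydrolyses esters and amides of lipids and foreign compounds, buffers metals and peroxides, and holds blood vessels, nerves and immune cells. The label was checked against 11 measured adipocyte markers, whose summed level lay between 12.6 and 13.1 in each line, with FABP4, the fatty acid binding protein of fat cells, as the brightest. At its brightest probe, none of the adipocyte markers was called between lines by limma or by the two-way analysis of variance of the study's methods. At those probes 0 of the 11 had a raw p under 0.05.

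The arrays lay on 6 slides of 8, scanned on 2 days. Each combination of diet and line had 2 arrays on each slide, so that neither slide nor day was confounded with line. Their median signal lay between 115 and 178 and their median background between 23 and 33, with no saturated spot, and between 38875 and 47814 probes per array were well above background. The number of arrays limits the precision.

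Line changed few probes, and most of them by little. Probes were called at the thresholds of the study, a raw p under 0.01, a fold change over 1.1 and a Benjamini-Hochberg (BH) adjusted p under 0.08 in limma over the 45749 probes tested. Of these, 1487 were called, or 3.25%, with 756 higher (1.65%) and 731 lower (1.6%) in low RFI pigs. Where a gene had several probes, the brightest on average stood for it. Values, errors and p given for a gene are those of that probe unless another is named, and a count of called probes says nothing of their sizes. On that basis 345 of 11321 genes were called, or 3.05%, of which 204 were higher (1.8%) and 141 lower (1.25%) in low RFI pigs. The median fold change of the called genes was 1.24, and 41 of them passed 1.5-fold and 10 passed 2-fold. No gene and no probe kept the 24 low RFI values apart from the 24 high RFI values. The median line difference over all genes was 0.0037 on the log2 scale, and 1340 genes, or 11.8%, had a raw p under 0.05. A positive difference was found for 5913 of the 11321 genes. Counts of signs within a list were not tested, as genes are not independent replicates. Each list below is read against these values and against the 3.05%.

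**Figure D1:**
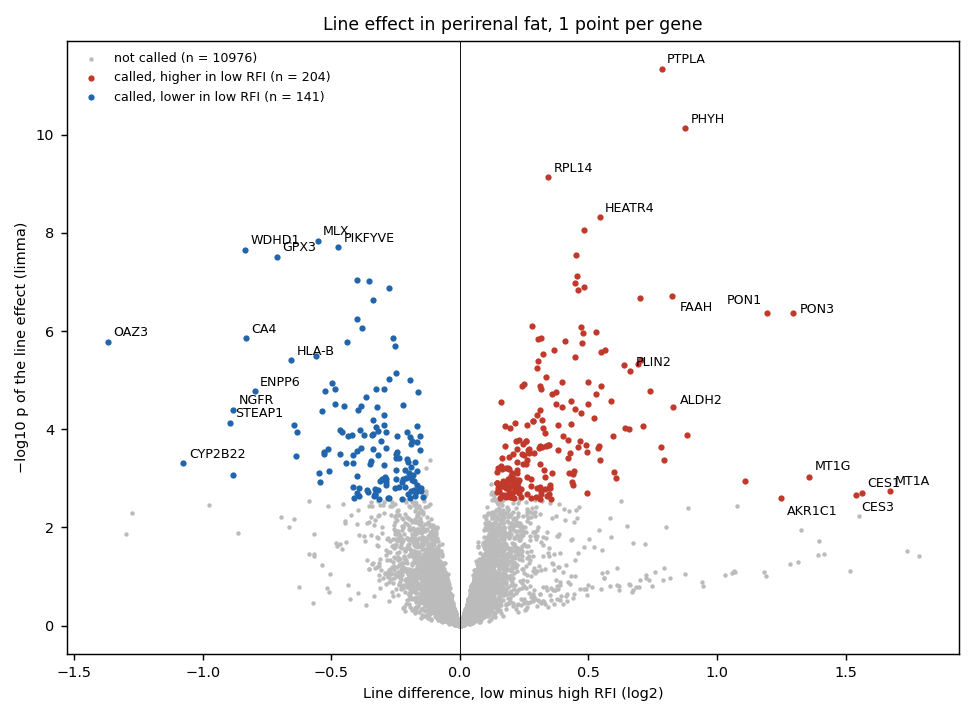
Line difference of each of the 11321 genes (horizontal axis, log2, low minus high RFI) against −log10 of its p for line in limma (vertical axis), with 204 genes called as higher in red and 141 called as lower in blue. PTPLA and PHYH stand highest, and the widest called differences run from OAZ3 at -1.37 to MT1A at 1.67.

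Among genes of lipid handling, the differences with the smallest p concerned the elongation and the peroxisomal breakdown of fatty acids. PTPLA, PHYH, FAAH and PLIN2 were higher in low RFI pigs, by 1.58-fold to 1.83-fold, and ELOVL6 and MLX were lower, by 1.46-fold and 1.47-fold. PTPLA (also called HACD1) encodes the dehydratase of very-long-chain fatty acid elongation. Its level ran from 2.98 through a median of 4.0 to 4.42 in low RFI pigs, and from 2.61 through 3.13 to 3.68 in high RFI pigs. The line difference was 0.79 ± 0.09 (limma BH p = 6.9e-08), the smallest p of all genes, and 21 of the 24 low RFI pigs lay above every high RFI pig. PTPLA has 1 tested probe, so no other probe bears on this value.

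PHYH encodes the peroxisomal phytanoyl-CoA hydroxylase, which starts the alpha-oxidation of branched-chain fatty acids. Low RFI pigs ranged from 6.52 to 8.57 with a median of 7.40, against 6.05 to 7.49 with a median of 6.59 in high RFI pigs. With a difference of 0.87 ± 0.11 (limma BH p = 3.4e-07), all 6 tested PHYH probes were called in the same direction, and the difference was positive on all 6 slides. HF pigs showed 0.85 and LF pigs 0.90. The first 30 bases of the brightest PHYH probe are shown because this gene had the best-supported lipid difference, with all letters in lower case since none is singled out:
PHYH probe: aaattctatggtttggaaactggcagtctg

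FAAH, the hydrolase of anandamide and other fatty acid amides, ran from 1.62 through 3.06 to 3.60 in low RFI pigs and from 1.37 through 2.01 to 3.11 in high RFI pigs. Its brightest probe differed by 0.83 ± 0.14 (limma BH p = 9.9e-05), the dimmest of 3 by 0.33 (limma BH p = 0.0022), and all 3 were called. A total of 10 low RFI pigs exceeded the highest high RFI pig. For PLIN2, a coat protein of lipid droplets, the low RFI values of 2.97, 3.77 and 4.70 (lowest, median, highest) compared with 2.46, 3.07 and 3.78. PLIN2 was higher by 0.66 ± 0.13 (limma BH p = 0.0013) at its brighter probe and by 0.31 (limma BH p = 0.03) at the other, and it was the only called gene among 35 of triglyceride storage, uptake and lipolysis, 2.86% of that list, whose median was 0.043.

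ELOVL6 elongates palmitate to stearate. Its values reached from 5.76 through 7.26 to 8.62 in low RFI pigs and from 6.67 through 7.81 to 8.78 in high RFI pigs, so that the lines overlapped over most of their range. The difference was -0.55 ± 0.15 (limma BH p = 0.036), it kept its sign on 4 of 6 slides, 1 of 2 probes was called, and the mean of both probes was not. ELOVL6 was the only called gene of 17 in fatty acid synthesis, whose median was 0.021. MLX, the partner with which the glucose-responsive factor ChREBP binds DNA, was the only called gene of 21 lipogenic transcription factors and regulators. It ran from 2.16 through 2.43 to 3.08 in low RFI pigs and from 2.33 through 3.11 to 3.55 in high RFI pigs. All 24 low RFI pigs lay below the mean of the high RFI line, with a difference of -0.55 ± 0.08 (limma BH p = 1.7e-05). The other MLX probe differed by 0.01 and was not called, so that the fall rests on a single probe.

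Mitochondrial fatty acid oxidation gave 0 calls among 31 genes by limma or by analysis of variance, with 5 genes at a raw p under 0.05. Of its members 26 had a positive difference and the list median was 0.089, with HADH at 0.20 (limma BH p = 0.27) and ACADL at 0.17 (limma BH p = 0.28) at the smallest p. Cholesterol synthesis and uptake likewise gave 0 calls by both tests among 24 genes, 5 of them at a raw p under 0.05, with a median of 0.063. Several called genes outside these lists act on peroxisomes or on acyl-CoA, and were picked after their values were seen. ABCD2, a peroxisomal importer of very long chains, was higher by 0.52 (limma BH p = 0.0061). The peroxisome biogenesis genes PEX19 and PEX11G were both higher by 0.26, PEX11G not by analysis of variance (BH p = 0.083), NUDT19, a peroxisomal CoA diphosphatase, by 0.27, and SCP2, the peroxisomal thiolase and sterol carrier, by 0.21. ACOT4, a peroxisomal acyl-CoA thioesterase, was higher by 0.69 at its brightest probe and lower by a called difference at its other one, so its direction is uncertain. Because these genes were chosen from the calls, their directions are no separate evidence.

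**Figure D2:**
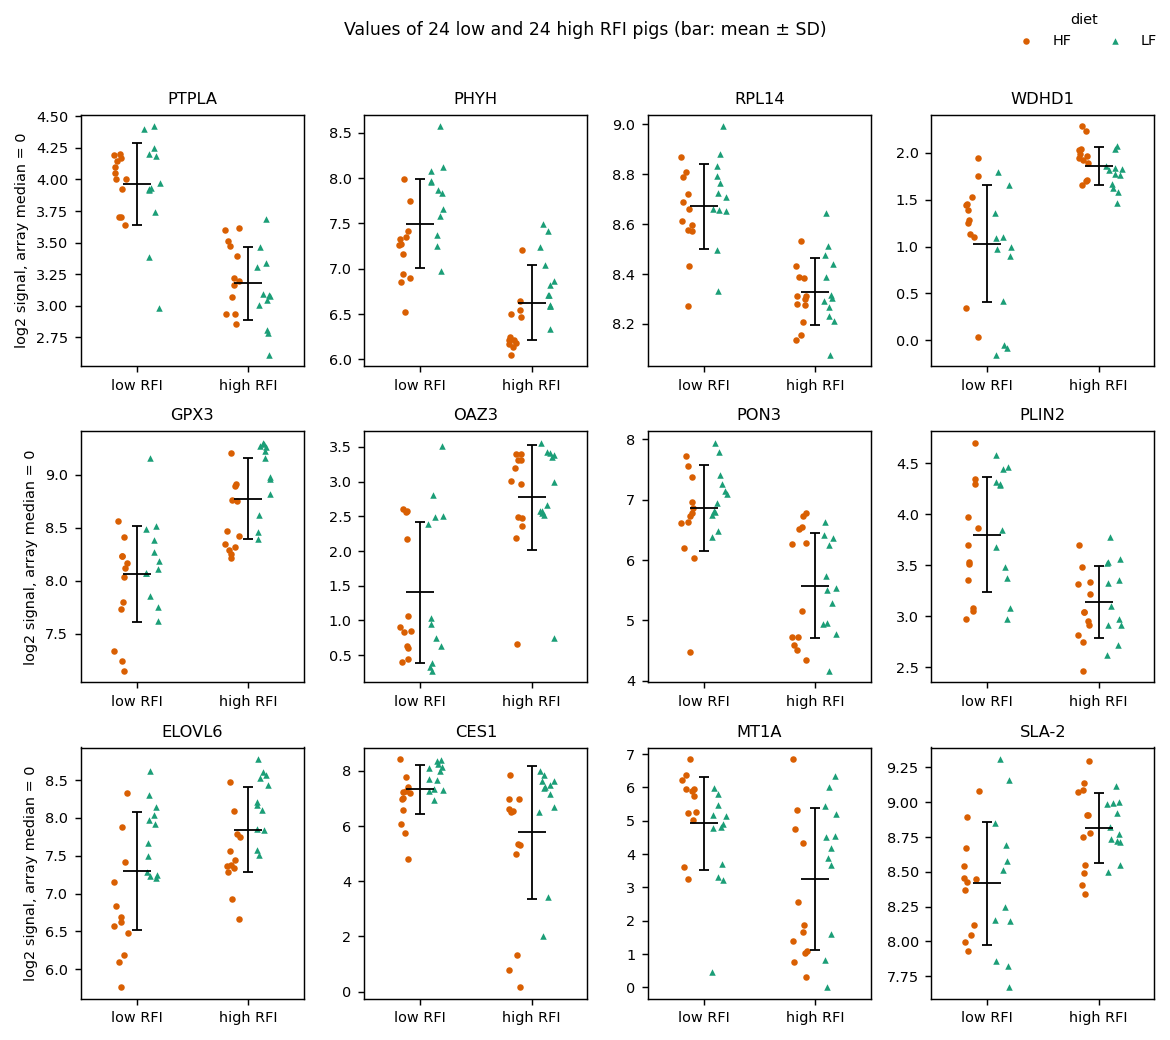
Log2 signal relative to the array median (vertical axes, 1 panel per gene) of the 24 low and 24 high RFI pigs, with circles for HF and triangles for LF pigs and bars for the line mean ± SD. PTPLA, PHYH, RPL14, PON3 and PLIN2 sit higher in low RFI pigs and WDHD1, GPX3 and OAZ3 lower, while 5 high RFI pigs fall below all low RFI pigs for CES1.

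In the pathways of glucose use, 2 genes were higher in low RFI pigs. PDK1 of the scanner files, the pyruvate dehydrogenase kinase that restrains pyruvate entry into the Krebs cycle, ran from 3.23 through 3.82 to 4.33 in low RFI pigs, against 2.43, 3.39 and 4.2 in high RFI pigs. It was higher by 0.48 ± 0.08 (limma BH p = 7.3e-05) at the brightest of 3 called probes, by 0.40 and 0.18 at the others, and was the only call among 31 genes of glycolysis and pyruvate oxidation (3.23%, median 0.019). The line difference of PDK1 was 0.68 in HF pigs and 0.28 in LF pigs. GBE1, the glycogen branching enzyme, was higher by 0.44 ± 0.12 (limma BH p = 0.037) at 1 of 2 probes, as the only call among 22 glycogen genes. Of 37 insulin and IGF signalling genes, STAT5A alone was called, at 0.20 (limma BH p = 0.066), and 2 of the 5 other scalings ended that call.

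Respiratory chain genes held a single call. NDUFAF6, an assembly factor of complex I, was higher by 0.31 ± 0.06 (limma BH p = 0.00042) and was the only call among 84 genes of oxidative phosphorylation, 1.19% of the list. Its list median was 0.026, and 64 of the 84 differences were positive. Of 65 mitochondrial ribosomal proteins, 4 were called, or 6.15%, all as higher in low RFI pigs, with a list median of 0.035. These were MRPL9 at 0.23, MRPL15 and MRPL17 at 0.20 each and MRPL3 at 0.18, so that each was raised by 1.13-fold to 1.17-fold. MRPL9 was called at both of its probes, and MRPL15 and MRPL17 have a single tested probe each. The dimmer MRPL3 probes were not called, at 0.18 (limma BH p = 0.084) and 0.045 (limma BH p = 0.79). Cytosolic ribosomal proteins had a single call among 92, and 73 of the 92 differences were positive. That gene, RPL14 of the large subunit, ran from 8.27 through 8.68 to 8.99 in low RFI pigs and from 8.08 through 8.31 to 8.65 in high RFI pigs. Although RPL14 differed by only 0.34 ± 0.04, the narrow spread gave the third smallest p (limma BH p = 1.7e-06), 16 low RFI pigs exceeded every high RFI pig, and 6 of 7 probes were called.

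Enzymes that act on foreign compounds, steroids and reactive lipids included several of the widest differences. Of 97 measured genes of this list 8 were called, or 8.25%, with 7 higher and 1 lower in low RFI pigs and a list median of 0.032. The 8 include CES1 and CES3, whose brightest probes are nearly the same sequence, so they hold 7 separate observations. They comprised CES1, CES3, AKR1C1, ALDH2, CYP1A2, ALDH1A1 and, beyond the 6 that the naming rule takes from a list, EPHX1 at 0.54, all higher, and CYP2B22, which was lower. At a raw p under 0.05 stood 20 of the 97, or 20.6%. Analysis of variance called 5 of the 97 genes and not CES1, CES3 and AKR1C1, whose values varied widely between pigs. ALDH2, the mitochondrial enzyme that oxidises acetaldehyde and lipid aldehydes, ran from 5.04 through 6.23 to 7.49 in low RFI pigs and from 4.29 through 5.18 to 6.94 in high RFI pigs. The difference was 0.83 ± 0.18 (limma BH p = 0.0044), and all 11 ALDH2 probes were called, at 0.71 to 0.85.

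CES1, a carboxylesterase that hydrolyses esters of drugs and lipids, showed a wide spread in the high RFI line. Low RFI pigs lay between 4.81 and 8.44 with a median of 7.32, and high RFI pigs between 0.15 and 8.01 with a median of 6.65. The SD was 0.88 in the low RFI line and 2.41 in the high RFI line. A group of 5 high RFI pigs, 3 of them fed HF and 2 fed LF, lay between 0.15 and 3.42, below the lowest low RFI pig, and the next high RFI pig was at 4.98. The mean difference of 1.56 ± 0.48 (limma BH p = 0.066), with all 7 probes called at 0.75 to 1.56, thus draws in part on those 5 pigs, while the medians differed by less. The brightest CES3 probe differed by 1.54 and shares a run of 58 of its 60 bases with the brightest CES1 probe, so it is no separate observation, and the other CES3 probe differed by -0.01. Their shared stretch is shown, in lower case, because it makes the brightest CES1 and CES3 probes inseparable:
CES1 probe: ggagggggaatttctgtagctgcggcctca
CES3 probe: ggagggggaatttctgtagctgcggcctca

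AKR1C1, an aldo-keto reductase of steroids and prostaglandins, ran from 3.99 through 5.39 to 6.21 in low RFI pigs and from -1.69 through 4.57 to 5.64 in high RFI pigs. A pair of LF-fed high RFI pigs at or below -1.57 stood apart from the next one at 2.60. The difference was 1.25 ± 0.39 (limma BH p = 0.078), just inside the threshold and no longer called under 3 of the 5 other scalings, and 2 of 7 probes were called. CYP2B22, a porcine cytochrome P450 of the drug-metabolising type, was lower in low RFI pigs, from -1.42 through 1.17 to 2.16 against 0.14, 2.23 and 3.27. Both of its probes were called, the brighter at -1.08 ± 0.29 (limma BH p = 0.027), and 13 high RFI pigs exceeded the highest low RFI pig. CYP1A2, another P450, was higher by 0.55 (limma BH p = 0.00068). ALDH1A1 and DHRS4, which act on retinoids, were higher by 0.35 and 0.33. They were the only 2 calls among 24 genes of retinoid metabolism (8.33%, median -0.029), of which 8, or 33.3%, had a raw p under 0.05. ALDH1A1 is also among the called enzymes of foreign compounds and steroids listed above.

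Paraoxonases are lactonases that also protect lipids from oxidation. All 3 PON3 probes were higher in low RFI pigs. The brightest ran from 4.47 through 6.84 to 7.95 in that line and from 4.16 through 5.52 to 6.78 in the other, a difference of 1.29 ± 0.22 (limma BH p = 0.00019), with 14 low RFI pigs above every high RFI pig. For PON1 the probes went in opposite directions. The brightest probe under that name differed by 1.19 ± 0.20 (limma BH p = 0.00018), while a dim one differed by -0.68 ± 0.19 (limma BH p = 0.038). The accession that the brightest probe carries is assigned to PON3 in the reference gene table, and the porcine PON1 accession belongs to the probe that was lower. The line difference of PON1 is therefore uncertain, while the PON3 probes point one way. The first 30 bases of both PON1 probes are shown in lower case, and by themselves they do not tell which gene each probe reads:
PON1 brightest probe: ttctcataggcaccgtatttcacaaagctc
PON1 dim probe: actacagtccaaatgaagttcaagtgatgg

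Metallothioneins, small proteins that bind zinc and copper, were higher in low RFI pigs, by 3.19-fold for MT1A and 2.56-fold for MT1G. MT1A ran from 0.48 through 5.21 to 6.86 in low RFI pigs and from 0.00 through 3.79 to 6.86 in high RFI pigs, so that both lines covered nearly the same range. In the high RFI line 11 pigs lay at or below 2.57 and the next at 3.68, whereas in the low RFI line a single pig, at 0.48, lay below 3.23. The difference of MT1A was 1.67 ± 0.51 (limma BH p = 0.062), the largest of any called gene, and that of MT1G was 1.36 ± 0.39 (limma BH p = 0.041). Another MT1A probe was called, at 1.65 (limma BH p = 0.059), and the dimmest MT1A probe was not, at 1.28 (limma BH p = 0.37). The brightest MT1A probe and the brightest MT1G probe share a run of 9 bases. A short shared run cannot show whether they are separate observations. MT1A was the only call among 44 genes of metal and iron handling, a list that does not hold MT1G. MT1M, chosen after its value was seen, was higher by 0.38 (limma BH p = 0.0078).

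Of 50 antioxidant and glutathione genes 3 were called, or 6%, and 15, or 30%, had a raw p under 0.05, with a list median of 0.057. GPX3, the secreted selenium-dependent glutathione peroxidase, was lower in low RFI pigs, which ran from 7.15 through 8.12 to 9.16 against 8.21, 8.79 and 9.30. With 6 of 6 probes called and 15 low RFI pigs below every high RFI pig, the difference of -0.71 ± 0.11 (limma BH p = 2.7e-05) was among the best supported falls. SOD2, the mitochondrial superoxide dismutase, was higher by 0.31 ± 0.06 (limma BH p = 0.0021), and 5 of its 9 probes were called. MSRA, which repairs oxidised methionine, was lower at -0.19 (limma BH p = 0.076), a call that analysis of variance did not make (BH p = 0.09).

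The widest fall in low RFI pigs was that of OAZ3, a member of the antizyme family, which restrains polyamine synthesis and is best known from the testis. Values ran from 0.27 through 0.93 to 3.52 in low RFI pigs and from 0.66 through 2.98 to 3.56 in high RFI pigs. They fell into a lower and an upper range in both lines. In the low RFI line 15 pigs lay at or below 1.07 and the other 9 at or above 2.17, and in the high RFI line 2 pigs lay at or below 0.75 and the other 22 at or above 2.19. The difference was -1.37 ± 0.25 (limma BH p = 0.00048), at -1.43 in HF pigs and -1.31 in LF pigs. All 3 probes were called, although the first 2 have the same 60 bases. OAZ3 was the only call among 27 genes of polyamine and one-carbon metabolism.

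Other large falls in low RFI pigs concerned membrane proteins, a neuropeptide and a replication factor. NGFR, the p75 neurotrophin receptor, ran from 2.22 through 2.80 to 4.18 in low RFI pigs and from 2.02 through 3.91 to 5.68 in high RFI pigs. It differed by -0.88 ± 0.19 (limma BH p = 0.0047), and 23 of 24 low RFI pigs lay below the high RFI mean. CA4, the membrane-bound carbonic anhydrase of capillaries, was lower at both probes, at -0.83 ± 0.15 (limma BH p = 0.00042) and -0.84, from 4.43 through 5.78 to 7.10 against 5.51, 6.41 and 7.65. ENPP6, a choline phosphodiesterase, ran from 1.1 through 2.31 to 3.18 against 1.81, 3.18 and 3.91, with 12 high RFI pigs above the highest low RFI pig. STEAP1, a membrane protein of the metalloreductase family, differed by -0.89 ± 0.21 (limma BH p = 0.0072) and at its other probe by -0.72 (limma BH p = 0.019), and its values overlapped from -0.04 to 2.44.

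PDYN, the precursor of the opioid dynorphins, was close to background, with medians of -1.22 in low and -0.80 in high RFI pigs, and differed by -0.88 (limma BH p = 0.039). KCNB2, a voltage-gated potassium channel subunit, was similarly dim and differed by -0.65 (limma BH p = 0.0078) at one probe and by -0.57 (limma BH p = 0.044) at the other. For PDYN 21 and for KCNB2 22 of the 24 low RFI arrays were well above background. S100B, a calcium-binding protein of Schwann cells that fat cells also make, went the other way, at 0.42 (limma BH p = 0.013), as the only call among 7 nerve and Schwann cell markers, whose median was 0.0061. The summed level of those markers lay between 6.97 and 7.85 in low RFI pigs and between 6.93 and 7.44 in high RFI pigs, and its part in the differences of NGFR and PDYN was not tested.

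WDHD1, a DNA replication factor, left the most low RFI pigs outside the range of the other line among the 12 widest falls. High RFI pigs lay in a narrow band from 1.47 through 1.85 to 2.29, and low RFI pigs ran from -0.15 through 1.12 to 1.94. A total of 19 low RFI pigs lay below every high RFI pig, and the difference was -0.84 ± 0.13 (limma BH p = 2.2e-05). It came from 1 of 3 probes, and the second differed by 0.00 and was not called. Of 44 genes of mitosis and DNA replication, RFC3 at 0.34 (limma BH p = 0.069) and GINS2 at -0.29 (limma BH p = 0.0024) were called. Analysis of variance called GINS2 but not RFC3 (BH p = 0.092), and the other RFC3 probe differed by 0.09 and was not called. The list median was -0.093, and 5 members had a positive difference. Most members thus had lower values in low RFI pigs without passing the test, and the count of signs was not tested.

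Among the remaining genes with the smallest p, HEATR4, whose role is little known, was higher by 0.54 ± 0.08 (limma BH p = 7.6e-06), and all 24 low RFI pigs exceeded the high RFI mean. ALG1, a mannosyltransferase of N-glycan assembly, was higher by 0.48 (limma BH p = 1.2e-05) near background, with 19 low RFI pigs above every high RFI pig. USP33, a deubiquitinating enzyme, was higher by 0.45 ± 0.07 (limma BH p = 2.6e-05) and was the only call among 85 genes of ubiquitin conjugation and removal. PIKFYVE, a lipid kinase of endosomes, was lower, from 2.58 through 2.97 to 3.65 against 2.93, 3.45 and 3.98, at -0.47 ± 0.07 (limma BH p = 2.1e-05), while its other probe was not called. FAM103A1, a subunit of the mRNA cap methyltransferase, was lower, at -0.40 ± 0.06 (limma BH p = 6e-05). SMIM7, a small membrane protein, was higher by 0.46 at its brightest probe, but of its 3 probes 2 were higher and 1 was lower, so its direction is uncertain, and the mean over its probes was not called. AMOTL2, an angiomotin of cell junctions, was higher by 1.11 ± 0.32 (limma BH p = 0.047), while the medians, at -0.39 and -0.68, lay closer together than the means, and 13 of 24 low RFI pigs lay above the high RFI mean.

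Immune genes showed a small set of lower values in low RFI pigs. Major histocompatibility complex (MHC) class I molecules, named SLA in the pig, present cell peptides to cytotoxic T cells. Of 24 genes of MHC class I and peptide loading 3 were called, or 12.5%, all lower in low RFI pigs at their brightest probes, with a list median of -0.046. The direction of 1 of the 3, SLA-8, is uncertain. SLA-2 ran from 7.67 through 8.44 to 9.31 in low RFI pigs and from 8.34 through 8.80 to 9.29 in high RFI pigs. Its difference was -0.40 ± 0.10 (limma BH p = 0.018), and 10 low RFI pigs lay below the lowest high RFI pig while none of the high RFI pigs lay above the highest low RFI pig. SLA-5 differed by -0.35 (limma BH p = 0.025) at its brighter probe and by -0.96 (limma BH p = 0.018) at the other. SLA-8 differed by -0.31 at its brightest probe, but 2 of its 4 probes were called as higher, and the mean of its probes differed by 0.048. HLA-B, a human name that the scanner files give to a porcine class I probe, was the lowest at -0.66 ± 0.13 (limma BH p = 0.00088). HLA-H at -0.49 and HLA-F at -0.33 were also called as lower, HLA-F not by analysis of variance (BH p = 0.081), and were looked at after their values were seen. The list of 24 genes does not hold HLA-B, HLA-H or HLA-F. B2M, the light chain of all class I molecules, was also looked at after its values were seen. It differed by -0.09 (limma BH p = 0.53) with 0 of 9 probes called.

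Class I genes vary between animals and resemble each other, so probes of one locus can read others. SLA-3 was looked at after its values were seen. Its brightest probe differed by -0.14 (limma BH p = 0.48) and was not called. Another SLA-3 probe was called as lower, at -0.47 (limma BH p = 0.0065), while a further one, at 0.23, was not called. SLA-1 was likewise looked at after its values were seen. Its brightest probe differed by -0.09 (limma BH p = 0.48), and of its 7 probes 3 were called as lower and 1 as higher. A pair of SLA-1 probes that overlap by 43 bases and differ at 2 of them were called in opposite directions, at -0.51 (limma BH p = 0.025) and 0.83 (limma BH p = 0.00082). They are shown over the same 30 bases, with the differing bases in capitals:
SLA-1 lower probe: gggatAataaatgagagatttcctTagttt
SLA-1 higher probe: gggatGataaatgagagatttcctAagttt
Which alleles the pigs carried was not measured here, and its part in the class I values was not tested.

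The other immune lists held few calls. MHC class II gave 0 calls among 13 genes by limma or analysis of variance and 0 at a raw p under 0.05, with a median of 0.00018, and the smallest p were those of SLA-DOA at -0.34 (limma BH p = 0.42) and SLA-DRB1 at -0.17 (limma BH p = 0.53). Of 38 interferon-stimulated genes, BST2, which tethers viruses to the cell surface, was lower, at -0.40 (limma BH p = 0.04) and TRIM25, a ubiquitin ligase of viral RNA sensing, was higher by 0.45 (limma BH p = 0.0046). The median of that list was -0.049, with 5 positive differences of 38. Of 86 chemokines, interleukins and receptors, IL13RA2, the decoy receptor of IL-13, was lower, at -0.64 ± 0.17 (limma BH p = 0.021) with 3 of 4 probes called, and IL3RA was lower, at -0.30. In Toll-like receptor signalling, TRAF6, the ubiquitin ligase downstream of these receptors, was higher by 0.88 ± 0.21 (limma BH p = 0.011), from 2.43 through 4.62 to 5.25 against 2.34, 3.84 and 5.02. The other TRAF6 probe differed by 0.12 and was not called. NFKBIA, the inhibitor of NF-κB, was lower, at -0.28 (limma BH p = 0.077) at its brightest probe, and 4 of 5 probes were called. Analysis of variance did not call that brightest NFKBIA probe (BH p = 0.094). PROS1, the anticoagulant protein S, was lower, at -0.35 as the only call among 49 complement and coagulation genes.

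At their brightest probes, markers of the immune cells did not move with these genes at the thresholds. None of 11 macrophage, 12 T and NK cell, 8 B and plasma cell, and 7 neutrophil and mast cell markers was called there. That held for limma and for analysis of variance, and none had a raw p under 0.05 there. The other probe of CD5, a T cell marker, was called as lower, at -0.25 (limma BH p = 0.071). Dimmer probes of CD8A at 0.11 (limma raw p = 0.039) and of C1QB at -0.08 (limma raw p = 0.049) were not called. The summed levels of the markers overlapped between lines. They lay at 5.68 to 8.69 in low and 6.22 to 8.64 in high RFI pigs for macrophages, and at 8.80 to 9.42 and 8.88 to 9.47 for T and NK cells. The neutrophil and mast cell markers ran from 4.88 to 6.33 and from 5.18 to 7.10, with 1 of 7 differences positive, and their part in the immune differences was not tested. Over all 16 marker lists, 13 had no call at the brightest probes. CUBN, a kidney marker, was called at 0.32 (limma BH p = 0.068), UPK1B, a mesothelium marker, at -0.37 (limma BH p = 0.011), and S100B as given above. CUBN and UPK1B were dim, well above background in 19 low and 12 high RFI pigs and in 14 and 22, and the summed levels of the 3 kidney markers (2.11 to 3.98 and 2.48 to 4.08) and the 5 mesothelium markers (2.21 to 4.26 and 2.19 to 4.63) overlapped between lines.

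Across the 33 pathway lists, 8 had no call at the brightest probes in the line comparison by limma or analysis of variance. Besides those given above, these were the proteasome (46 genes, 8 at a raw p under 0.05, median 0.042), heat shock proteins and chaperones (66 genes without CRYAB and UNC45B, 5 such, median 0.0031), the circadian clock (18 genes, 3 such, median 0.041), adipokines and energy sensing (26 genes, 2 such, median 0.017) and adrenergic, glucocorticoid and thyroid signalling (29 genes, 4 such, median 0.0043). PSMB8, a subunit of the immunoproteasome, had the widest proteasome difference, at -0.45 (limma BH p = 0.091), while 38 of the 46 proteasome differences were positive. HSD11B1, which regenerates active glucocorticoid, differed by -0.35 (limma BH p = 0.098). Neither passed the threshold at its brightest probe. Other HSD11B1 probes were called as lower, at -0.49 (limma BH p = 0.037) and -0.39 (limma BH p = 0.067), while another stood at 0.15 and was not called. Of the adipokine list, a dim NPY probe was called as lower, at -0.62 (limma BH p = 0.023). The extracellular matrix list gave 1 call in 91 genes, LAMB2 of basement membranes at 0.28 (limma BH p = 0.00029), and the unfolded protein list 1 in 30, the asparagine synthetase ASNS at 0.24.

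Solute carriers, the largest list, had 9 calls among 229 genes, or 3.93%, with 5 higher and 4 lower and a median of -0.0044. SLC48A1, a heme transporter of lysosomes, was higher by 0.55 (limma BH p = 0.0021), and SLC25A27, a mitochondrial carrier of the uncoupling protein family, was lower, at -0.54 (limma BH p = 0.047) at 1 of 2 probes. SLC7A7, a carrier of basic amino acids, was lower, at -0.51 (limma BH p = 0.034) with 4 of 4 probes called. SLC41A2 was higher by 0.43, and SLCO2B1, an importer of organic anions, was lower, at -0.31. The 5 higher calls include SLC10A5, which was well above background in 17 low and 6 high RFI pigs. It was thus tested only because of the line where it is high, and its call carries no weight. Zinc finger genes of the ZNF series had 1 call among 170, ZNF410 at 0.36, or 0.588%.

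**Figure D3:**
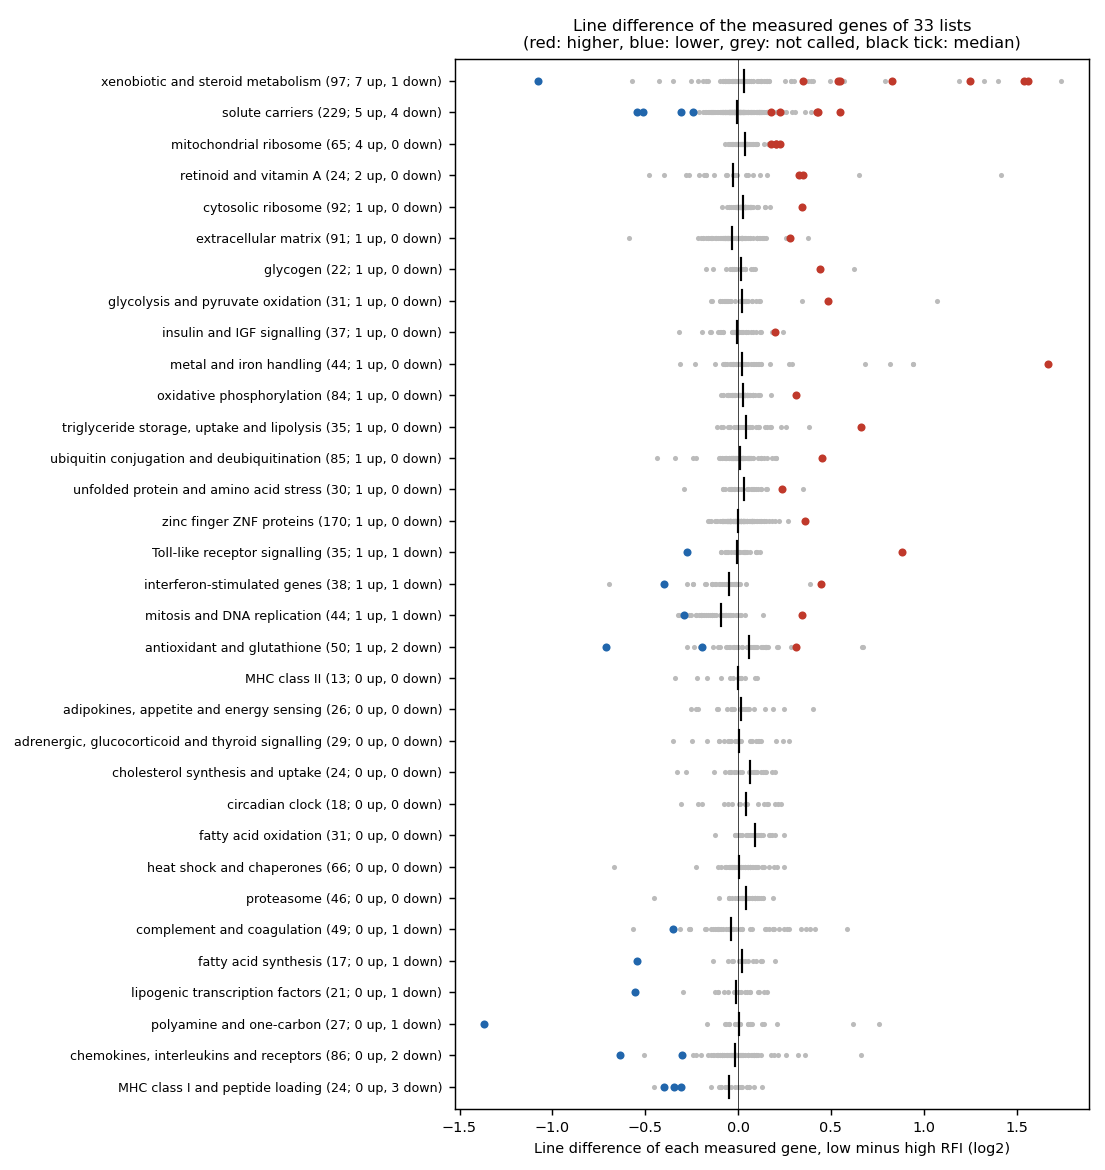
Line difference (horizontal axis, log2, low minus high RFI) of every measured gene in the 33 pathway lists, 1 row per list with the number of genes measured and called, red for called as higher, blue for called as lower, grey for not called and a black tick for the median. Medians lie near 0 in all lists, from -0.093 for mitosis and DNA replication to 0.089 for fatty acid oxidation, and no list holds more than 9 calls.

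Line differences were then set side by side in the 2 diets. Within HF pigs 406 probes were called (0.887%), 227 higher and 179 lower in low RFI pigs, and within LF pigs 180 (0.393%), 99 higher and 81 lower. With the replicate number as a block the counts were 709 and 275, and 245 probes had an interaction at a raw p under 0.01 in place of 150. Whether these counts differ was not tested as such, but the interaction of diet and line was tested probe by probe. It gave 0 calls by limma, with a smallest BH p of 1.0, with 150 probes at a raw p under 0.01 (0.328%) and 1076 at a raw p under 0.05. The two-way analysis of variance gave 0 calls too, and 147 probes at a raw p under 0.01. All 345 genes called by line had the same sign in HF and in LF pigs, which selection on the mean of both favours, and 243 had the same sign on all 6 slides. Across all genes, which are not independent replicates, the line differences of the 24 HF pigs and of the 24 LF pigs had a Pearson correlation of 0.508.

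Some genes nevertheless had unequal values in the diets. For MT1A the line difference was 2.79 in HF pigs and 0.55 in LF pigs. In HF pigs the medians were 5.82 in the low and 1.76 in the high RFI line, and in LF pigs they were 4.86 and 4.35, so that the HF-fed high RFI pigs stood lowest. MT1G showed 2.21 and 0.50. For SLC48A1 the values were 0.92 and 0.18, and for TRIM63, a muscle ubiquitin ligase chosen after its value was seen, 1.14 and 0.18. None of these 4 interactions passed the BH threshold in limma, where the smallest BH p over called genes was 1.0. AKR1C1 went the other way, with 0.69 in HF and 1.81 in LF pigs. Diet itself was called for 87 of the 345 genes called by line, or 25.2%, beside 2776 or 24.5% of all genes. PHYH was lower in HF than in LF pigs with a called log2 difference of -0.51, and ELOVL6 with -0.80.

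**Figure D4:**
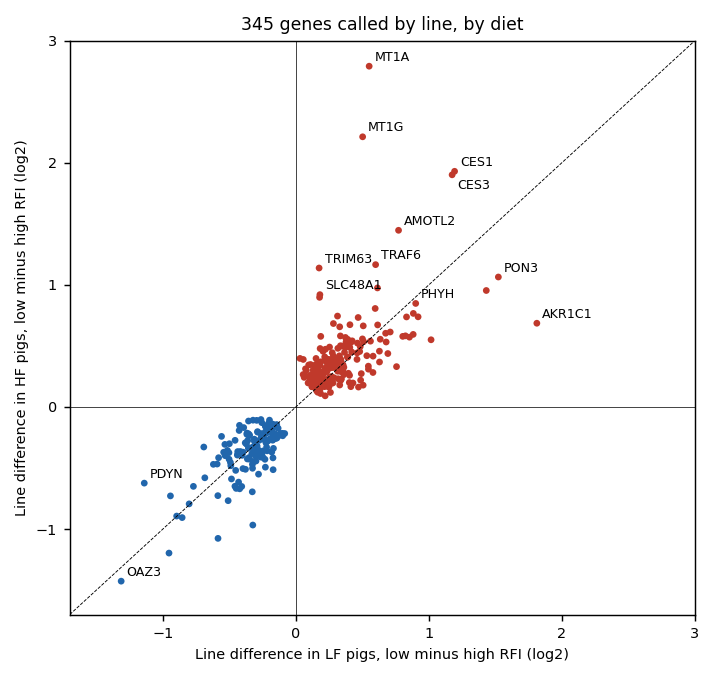
Line difference (log2, low minus high RFI) of the 345 called genes in the 24 LF pigs (horizontal axis) and in the 24 HF pigs (vertical axis), with the dashed line marking equal values. All 345 points lie in the 2 quadrants of equal sign, and MT1A at 2.79 in HF and 0.55 in LF pigs lies farthest above the line.

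How firmly a gene is measured depends on its probes. Of the 345 called genes 164 had a single tested probe and 181 had several. Among those 181, all probes were called the same way for 57, at least 2 for 98, and the brightest alone for 76, while 11 had a probe called in the opposite direction. A further 144 genes were not called at their brightest probe but at another. Of the 1487 called probes, 768 carried no gene name. Probes of the same gene that overlap by 30 bases or more allow a direct comparison. In 1726 such pairs without a mismatch the median gap in line difference was 0.014, and 0 pairs exceeded a gap of 0.5. In 860 pairs with at least 1 mismatch the median gap was 0.013, and 5 pairs exceeded 0.5 (0.581%). Of these pairs 3 were called in opposite directions, 2 of SLA-1 and 1 of FAM158A, genes looked at after their values were seen. Most of the pairs hold no called probe. Among pairs with a called probe, 4 of 34 with a mismatch exceeded 0.5 (11.8%), beside 0 of 65 without a mismatch. Sequence variation of the pigs at the mismatches was not measured, and its part in the differences was not tested.

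**Figure D5:**
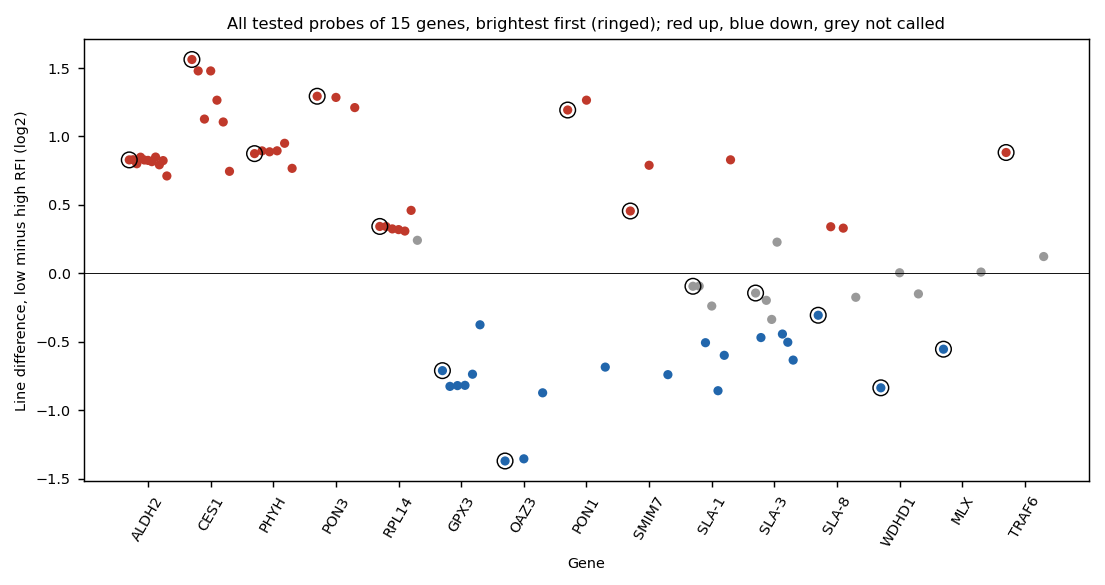
Line difference (vertical axis, log2, low minus high RFI) of every tested probe of 15 genes, brightest first and ringed, red for called as higher, blue for called as lower and grey for not called. The 11 ALDH2, 7 CES1, 6 PHYH and 6 GPX3 probes point the same way within each gene, whereas PON1, SMIM7, SLA-1 and SLA-8 hold probes called in both directions.

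Called genes also lay beside each other in the genome more often than other genes did. In the gene order of the Sscrofa11.1 RefSeq table, 10119 tested genes could be placed, 298 of them called. A called gene as the next tested gene on either side was found for 41 of the 298, or 13.8%, beside 542 of 9821 genes that were not called, or 5.52%. These shares are a description and were not tested. With the replicate number as a block 66 called genes had a called neighbour in place of 41. The 21 pairs comprised 15 in the same direction, among them PON1 with PON3, which cannot be counted as separate genes because the brightest PON1 probe carries a PON3 accession. Examples, chosen after their values were seen, are PHYH and the autophagy receptor OPTN (0.40), SCP2 and ECHDC2 (0.43), FXYD2 and FXYD6 (-0.47 and -0.46), which regulate the sodium pump, and CTSC and FOLH1B (-0.36 and -0.56). OAZ3 and its neighbour MRPL9 went in opposite directions, at -1.37 and 0.23.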

How the data were processed

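PRAT of 48 pigs was measured on one-colour Agilent arrays, 1 per pig. Spot intensity was extracted by the authors from the scanned Cy3 image with Feature Extraction 10.7.3.1 and deposited without normalization between arrays, with flags for spots. The deposited log2 table, which the authors filtered and centred on array medians in R 2.10.0, has 38142 entries. All of them equal a scanner spot within 1e-06, but 2 carry the name of that spot, so scanner files were used. A genome build is not given in the sources used here.

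Log2 of the median spot signal, without background subtraction, was centred on each array's median. Flagged spots were left out and repeated probes averaged. Probes well above background on at least 12 arrays with at least 18 values per line were kept, 45749 of 60305. Line with diet as covariate was fitted with limma 3.58.1 in R 4.3.3, two-sided, and called by the study's thresholds given above. Interaction and line within diet came from a fit of the 4 group means. Tested on simulated data of this comparison over 45749 probes, limma recovered 180 of 200 changed probes and called 17 unchanged ones. Noise was simulated independently for each probe. Most simulated differences were wider than the median one of the called genes, so this recovery does not carry over to small differences. Gene names came from the files, updated through the reference tables, and 23502 tested probes had one. A summed marker level is log2 of the sum of the markers' linear signals. Tables and plots used Python 3.11.15, numpy 2.4.6, pandas 2.3.3 and matplotlib 3.10.9.

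Members and gene lists were chosen with earlier results of these data known. Named are the 12 widest rises, the 12 widest falls and the 12 smallest p among genes called by line, and in each list up to 6 called members or, with none called, the 2 of smallest p. Genes outside this rule are said to be chosen after their values were seen. Alternatives were other scalings, filters, models, thresholds, blocks, either diet or scan day alone and the mean of a gene's probes. No set test was run. Subcutaneous fat was not analysed here. A few named genes are not reported here.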

Additional observations from a re-analysis of the deposited data

How the results depend on the processing

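Calls by line stayed within 1.5 times of 1487 probes and 345 genes under the other scalings, filters and models over all pigs and with BH under 0.05, from 1146 to 1961 probes and from 261 to 464 genes. Smaller sets of pigs gave fewer calls, and the part of the number of samples in this was not tested. Probes called were 418 in HF pigs alone, 113 in LF pigs alone, 236 on scan day 1 and 375 on scan day 2, and 240 at a fold over 1.5. Genes called were 103, 20, 46, 86 and 41, of which 92, 19, 38, 78 and 41 were among the 345. Called genes with a called neighbour numbered 4, 2, 9, 10 and 2 in place of 41, and calls within the lists 16, 3, 7, 14 and 11 in place of 55. List calls rose to 85 with array weights.

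Replicate numbers were not taken to pair the pigs, since the labels name nothing that pigs of the same number share. The arrays of those pigs did lie on the same slide and were scanned on the same day. Deviations of pigs with the same number correlated over 0.1 for 4 of 12 numbers, and the part of the slide in this was not tested. Their mean correlation was 0.0957, with a highest of 0.34, against -0.0283 for pigs of other numbers. With the number as a replicate block, 1961 probes (1022 higher, 939 lower) and 464 genes were called, 341 of them shared, with 66 called neighbours and 89 list calls, and within diets 709 probes in HF and 275 in LF pigs. The slide as a block gave 534 and 208 within diets.

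Of 1939 alternative values of 89 called named genes, 1553 kept direction and call, 385 kept the direction without passing and 1 reversed, SLA-8 at 0.0479 in the mean of its probes. Under other scalings 426 of 437 kept their call. Genes not called changed sign for ACTA1 in the mean of probes (0.108), ACTA2 on scan day 2 (0.00347), C1QB on scan day 1 (0.106), CCL21, DIO2 and HBE1 in LF pigs (0.168, 0.0967 and 0.0817), MADCAM1 in HF pigs (0.00766), and CD79B in HF pigs (0.0744) and on scan day 2 (0.17). The cause of these changes was not tested. Genes near background are measured least precisely.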

Other observations

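The genes in this section were picked after their values were seen, so their directions carry no test beyond that of each gene. Some genes better known from muscle were higher in low RFI pigs. FBP2, the muscle fructose bisphosphatase, was higher by 0.64 (limma BH p = 0.001), and CRYAB, a small heat shock protein that the list of chaperones leaves out, by 0.60 (limma BH p = 0.035) with 2 of 3 probes called. The ubiquitin ligase TRIM63 was higher by 0.66 (limma BH p = 0.0087) at its brighter probe, at 1.14 in HF and 0.18 in LF pigs. Its other probe, at 0.28, was well above background in 12 low and 5 high RFI pigs and passed the filter through the low RFI line. At their brightest probes, none of 11 skeletal muscle markers was called by limma or analysis of variance, with 0 at a raw p under 0.05. Their summed levels were 6.32 to 7.09 in low and 6.51 to 7.15 in high RFI pigs. A dimmer probe of MYH7, which is among these markers, stood at 0.30 (limma raw p = 0.0056) and was not called. The brightest MYH7 probe stood at -0.24. UNC45B, a myosin chaperone also outside the list of chaperones, was well above background in 13 low and 4 high RFI pigs. It passed the filter only through the low RFI line, so its call carries no weight.

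Mitochondrial genes outside the lists went both ways. SUCLA2, a subunit of succinyl-CoA synthetase, was higher by 0.47 (limma BH p = 0.0003), OXCT1, which activates ketone bodies, by 0.40 (limma BH p = 0.011), COQ3 of coenzyme Q synthesis by 0.33 (limma BH p = 0.0016) and TFB1M, which modifies mitochondrial ribosomal RNA, by 0.30 (limma BH p = 0.00043). On the other side, MTERFD1, a mitochondrial transcription termination family member, was lower, at -0.34 (limma BH p = 0.00012) with 4 of 4 probes called, and IDH3A of the Krebs cycle at -0.24 (limma BH p = 0.023). Some immune cell genes outside the lists were lower. CD40, a costimulatory receptor, stood at -0.46 (limma BH p = 0.02) with 4 of 4 probes called, the phospholipase PLA2G7 of macrophages at -0.44 (limma BH p = 0.011) with 6 of 6, and the granzyme GZMH at -0.63 (limma BH p = 0.0096) with 2 of 2. The lymphocyte chemokine XCL1 was higher, at 0.49 (limma BH p = 0.018) with 3 of 3.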
